A study of Mus musculus with 9 samples.

Results

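The clustered protocadherin genes were followed in RNA from mouse midbrain at E14.5 (embryonic day). They were taken as the protein-coding genes of the GRCm38 annotation whose symbols begin with Pcdha, Pcdhb or Pcdhg and carry the number of a variable exon or gene, and 57 of the 51912 genes in the table met this rule. The alpha cluster gave 14 genes, of which 12 were alternate isoforms and 2, Pcdhac1 and Pcdhac2, were of the C-type. The beta cluster gave 22 genes. The gamma cluster gave 21 genes, namely 12 of the A subfamily, 6 of the B subfamily and the C-type genes Pcdhgc3, Pcdhgc4 and Pcdhgc5. The rule used no measured value, although earlier results of these data were known when it was set. All 57 lie on the forward strand of chromosome 18 between bases 36930184 and 37841873, a stretch of 912 kb.

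Embryos carried a LacZ insertion in Nkx2.9, a homeobox gene listed as Nkx2-9 in the annotation, and the groups were Nkx2.9+/+, Nkx2.9LacZ/+ and Nkx2.9LacZ/LacZ, all on C57Bl/6. In the LacZ allele a nuclear LacZ takes the place of the gene's first exon and is joined to the start codon of Nkx2.9, and homozygous embryos lack that exon in every cell. Each genotype had 3 libraries, and each library came from 2 micro-dissected midbrains that were pooled, whose sexes were not given. The title of the series also speaks of cortical tissue, while the labels of the samples name midbrain. En1, a midbrain and anterior hindbrain factor, had 157 to 407 normalized counts over the libraries and Otx2, a forebrain and midbrain factor, had 205 to 329. Libraries are numbered below by their place in the table, where 1 to 3 were Nkx2.9LacZ/LacZ, 4 to 6 Nkx2.9LacZ/+ and 7 to 9 Nkx2.9+/+. These numbers are not replicate numbers of the labels.

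Clustered protocadherins are cadherin-related adhesion proteins of neurons that bind the same isoform on a neighbouring cell. Each neuron uses a small set of them, chosen promoter by promoter with the help of CTCF and cohesin, and the resulting surface code lets branches of the same neuron recognise and avoid each other. Alpha and gamma transcripts join a variable first exon, which encodes the extracellular and transmembrane parts, to constant exons shared by their whole cluster, whereas beta genes have no shared constant exon. The C-type genes stand at the ends of the alpha and gamma arrays and are used more evenly among neurons than the alternate genes.

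Because of this arrangement, the first question was which part of each gene a count could come from. Of 1170 genes in the whole table without any exon base of their own (bases that no other gene overlaps on either strand), 1132 (96.8%) were at 0 in every library, against 13870 of 42184 genes (32.9%) with 300 or more own bases. Of 230 genes that would have at least 300 own bases if strand were taken into account, 217 (94.3%) were at 0. Reads on exons shared by genes, whichever their strand, were thus mostly absent from the values, and the level of an alpha or gamma gene rests on its variable exon rather than on the shared constant exons. The own bases made up a median of 45.7% of all exon bases of the alternate alpha genes, 53.8% of the gamma A genes and 55.7% of the gamma B genes, while 19 of the 22 beta genes had all exon bases to themselves. Similarity between the first exons of members (the whole transcript in beta genes) was low on the scale of a read. Of the 57, 25 shared no 100-base window of this part with that of another member or of the pseudogene Pcdhgb8. The highest share of such windows, in Pcdhgb2, was 9.8%. Later exons of alpha and gamma genes were left out of this comparison.

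**Figure D1:**
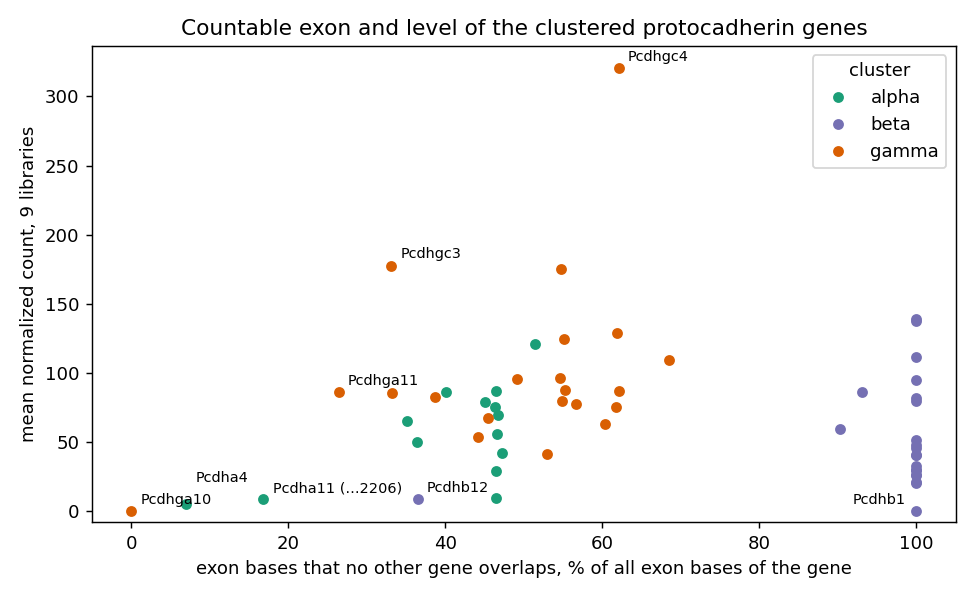
The mean normalized count over 9 libraries (vertical axis) is plotted against the share of a gene's exon bases that no other gene overlaps (horizontal axis, %), with 1 point per clustered protocadherin gene coloured by cluster. Pcdhga10 is at 0 on both axes, Pcdha4 and the second Pcdha11 row have low shares and low counts, and Pcdhb1 is near 0 although all its exon bases are its own.

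Several members were poorly measured for this reason. Pcdhga10 had no own base at all, since its first exon of 2613 bases lies wholly under Gm26672 on the opposite strand, and it was at 0 in all 9 libraries. This 0 gives no upper limit for its RNA. In Pcdha4, 2410 bases of the first exon are shared with Gm42416 and only 404 own bases were left, with 1 to 11 reads per library. The annotation gives the symbol Pcdha11 to 2 rows, ENSMUSG00000007440 and ENSMUSG00000102206, which are kept apart here by these identifiers. In the second of them 2486 bases of the first exon lie under Gm10545, and in Pcdhb12 1927 bases lie under Gm37446. Pcdhgc3 shares 1559 bases with BC037039 and Pcdhga11 1381 bases with Gm26672, so their levels rest on 1821 and 1256 own bases, respectively.

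The libraries held 1692963 to 5942192 reads on genes, with libraries 7 (Nkx2.9+/+) and 4 (Nkx2.9LacZ/+) the shallowest at 1692963 and 2584074. The members together took 1609 to 5719 reads per library, 0.0915 to 0.103% of all reads on genes, and 54 of the 57 were detected in every library. In each of the 9 libraries more genes had exactly 2 reads (2303 to 2786) than exactly 1 read (1445 to 1728), and whether the ends of a pair were counted separately was not given, so reads may not be independent of each other. Nkx2-9 itself was close to the detection limit, with 0, 2 and 2 reads in the Nkx2.9+/+ libraries, 0, 7 and 4 in Nkx2.9LacZ/+ and 4, 6 and 3 in Nkx2.9LacZ/LacZ, or 0 to 1.47, 0 to 5.98 and 2.58 to 5.49 normalized counts. The targeted gene was thus higher in every library labelled Nkx2.9LacZ/LacZ than in every library labelled Nkx2.9+/+, from at most 6 reads, and which of its exons these reads came from is not in the table. It does not bear out the labels, and every direction between genotypes below rests on the genotype named for each library. Xist, which is expressed from the inactive X chromosome of females, was at 4607 to 5182 normalized counts in the Nkx2.9LacZ/LacZ libraries, at most 2929 in Nkx2.9LacZ/+ and 47.1 to 4342 in Nkx2.9+/+. The sex of the pooled embryos therefore differed between libraries, and the range of the Nkx2.9LacZ/LacZ libraries did not overlap that of either other genotype. Its part in the comparisons below was not tested.

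The midbrain transcribed all 3 clusters, and 2 of the 3 C-type genes of the gamma cluster led them per kb of own exon. Levels are compared between genes as mean normalized counts per kb of own exon. Pcdhgc3 had 97.6 ± 13.5 per kb (SD, n = 9 libraries) and Pcdhgc4, whose loss is known to cost neurons their survival, had 92.2 ± 15.3 per kb. The third of them, Pcdhgc5, had only 13.7 ± 2.55 per kb, so Pcdhgc3 and Pcdhgc5 at the end of the gamma array differed 7.13-fold in level per kb of own exon. Per kb of whole exon they had 32.3 and 8.27, a smaller difference. By that measure Pcdhgc4 (57.3) was still highest, but Pcdhgc3 was below Pcdhgb6 (37.4). Pcdhgc3 and Pcdhgc4 stood at the 88.8 and 87.8 percentile of 16689 genes with a level per kb.

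Among the alternate gamma genes the level per kb of own exon was highest in Pcdhga11 (68.7 ± 14.2), Pcdhga4 (54.4 ± 12.2) and Pcdhga3 (47.8 ± 9.11) of the A subfamily and in Pcdhgb6 (68.3 ± 10.7), Pcdhgb7 (45.4 ± 7.44) and Pcdhgb2 (28.0 ± 5.60) of the B subfamily. Per kb of whole exon Pcdhga3 (26.3) led the A subfamily, and Pcdhga11 and Pcdhga4 had 18.1 each, below Pcdhga5 (20.6). The lowest measured genes were Pcdhga1 with 14.6 ± 2.30 per kb and Pcdhgb4 with 20.96 ± 2.95 per kb. Every measured alternate gamma gene was therefore above the C-type gene Pcdhgc5 in mean level per kb of own exon, while per kb of whole exon Pcdhga1 (7.75) was below Pcdhgc5 (8.27). The median level per kb was 33.5 in gamma A, over the 11 genes with own bases, and 26.9 in gamma B.

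The alternate alpha genes had a median of 26.8 per kb and were close to each other at the top. Pcdha7 had 40.2 ± 8.15 per kb, Pcdha9 35.2 ± 4.26 and Pcdha6 34.5 ± 6.77. The first gene of the array, Pcdha1, was the lowest alternate alpha gene at 3.94 ± 1.80 per kb. The C-type gene Pcdhac2, which in serotonergic neurons is needed for the even spread of axons, had 39.8 ± 4.91 per kb, and Pcdhac1 had 16.5 ± 4.35.

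The beta genes were the lowest group per kb of own exon, with a median of 11.1. Per kb of whole exon length, which counts the shared exons too, the median was 11.1 in beta and 11.3 in the alternate alpha genes. Pcdhb17 (29.6 ± 2.85 per kb), Pcdhb20 (26.6 ± 5.21) and Pcdhb7 (23.4 ± 4.52) were the highest. Pcdhb1, the first gene of the array, was all but silent, with 2 reads in library 1, 1 read in library 9 and 0 in the other 7 libraries, where a count of 0 allows up to 3 reads. The gap between Pcdha1 and Pcdhb1 was the only one of 55 steps in the order of the 56 measured members at which the ranges of neighbours over the 9 libraries did not overlap. All other neighbours in the order were within each other's range.

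**Figure D2:**
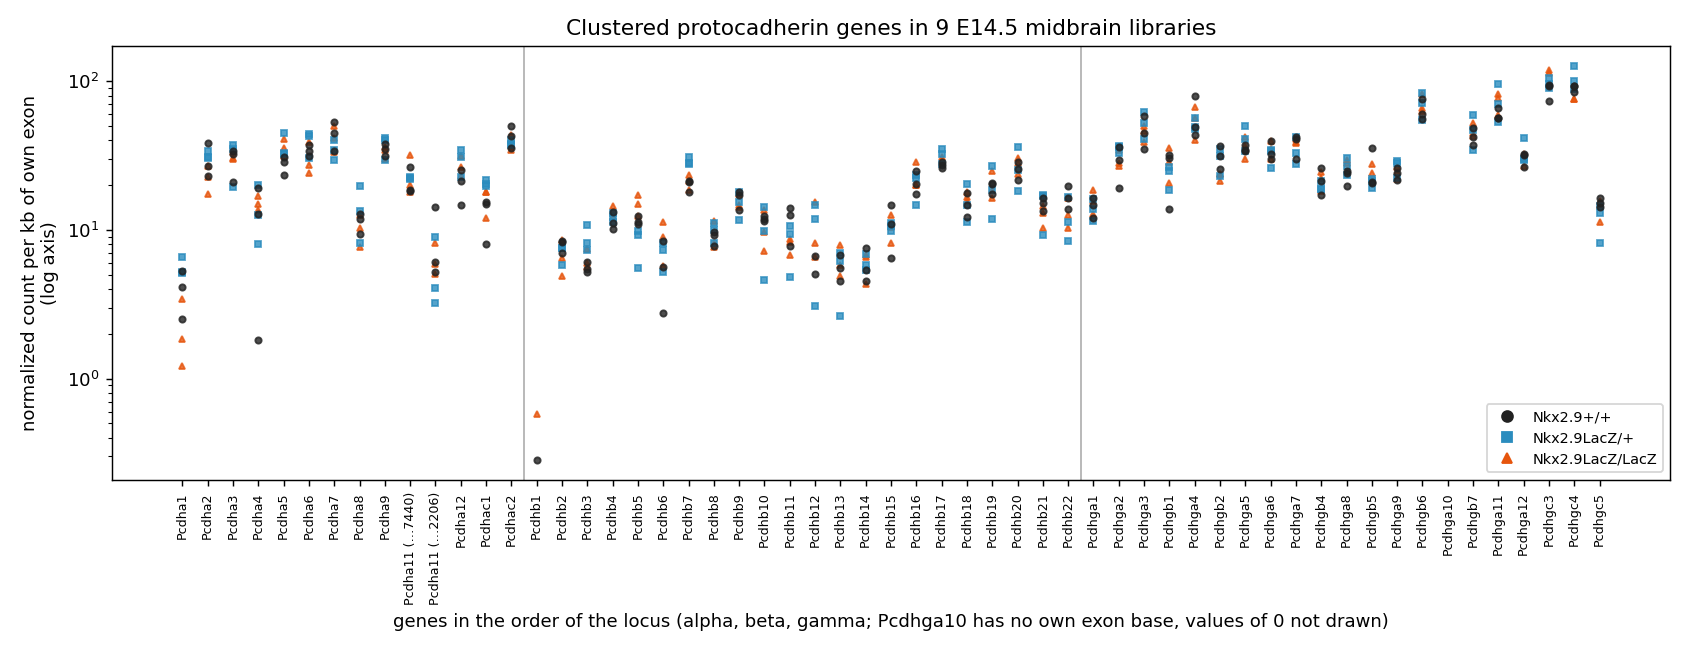
The normalized count per kb of own exon (vertical log axis) is shown for each clustered protocadherin gene in the order of the locus (horizontal axis), with 1 point per library marked by genotype. Pcdhgc3 and Pcdhgc4 are highest, Pcdhb1 is lowest, and the genotypes are mixed in nearly every gene.

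Within the beta cluster the level per kb tended to be higher in genes farther along the array, without a steady rise. Pcdhb13 (5.71) and Pcdhb14 (5.90) were low, and Pcdhb7 (23.4), nearer the start, was high. Spearman's rho between the order of the genes and the level per kb was 0.54 over 22 beta genes, against 0.03 over 12 alternate alpha genes, 0.11 over 11 gamma A genes and 0.49 over 6 gamma B genes. The points of each correlation share the 9 libraries and it is given as a description. The summed level per kb of Pcdhb12 to Pcdhb22 was 1.33 to 2.05 times that of Pcdhb1 to Pcdhb11, above 1 in all 9 libraries. The 2.05 came from library 3 and the next highest ratio was 1.60.

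The ranking of the members was much the same from library to library. Spearman's rho of the normalized counts of the 55 members tested was between 0.82 and 0.94 over 36 pairs of libraries, with a median of 0.91. The variance within genotypes was a median of 2.23 times what counting of independent reads would give for the members and 2.62 times for all 16993 genes tested. Pcdhb19 was the most variable by this measure, at 8.69, with 84.7 to 191 normalized counts in the Nkx2.9LacZ/+ libraries.

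The 12 nonclustered protocadherins, which are separate genes with their own adhesive roles, had a median of 71.7 normalized counts per kb of own exon, and the 55 members tested had a median of 23.4. All genes compared had a median of 21.1. The 2 sets overlapped, since Pcdhgc3 and Pcdhgc4 were above 9 of the 12 nonclustered genes, and Pcdh12 (6.67), Pcdh20 (8.45) and Pcdh15 (9.48) were below the median of the members. The summed normalized count of the 57 members was 2.26 to 2.82 times that of Pcdh10, a nonclustered protocadherin of axon growth, in the same library.

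The summed output of each cluster is described by genotype, without a test. The summed normalized count of the alpha cluster was 740, 774 and 781 in the Nkx2.9+/+ libraries, 922, 845 and 707 in Nkx2.9LacZ/+ and 741, 743 and 795 in Nkx2.9LacZ/LacZ. The beta cluster had 1166, 1199 and 1231 in Nkx2.9+/+, 973, 1395 and 1263 in Nkx2.9LacZ/+ and 1230, 1151 and 1298 in Nkx2.9LacZ/LacZ. For the gamma cluster the sums were 2255, 2040 and 1900 in Nkx2.9+/+, 2342, 2101 and 2078 in Nkx2.9LacZ/+ and 1936, 2170 and 2208 in Nkx2.9LacZ/LacZ. The groups overlapped for all 3 clusters in all 3 comparisons.

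The mean sum in Nkx2.9LacZ/LacZ was 0.993 times that in Nkx2.9+/+ for alpha, 1.02 times for beta and 1.02 times for gamma. Nkx2.9LacZ/+ stood at 1.08, 1.01 and 1.05 times Nkx2.9+/+, and Nkx2.9LacZ/LacZ at 0.921, 1.01 and 0.968 times Nkx2.9LacZ/+. Since sums over members chosen with earlier results in view carry no test, these ratios are descriptions. Library 4 held both the highest alpha sum and the lowest beta sum, and the ratios above rest on it in part. Without it the log2 ratio of Nkx2.9LacZ/+ to Nkx2.9+/+ was 0.02 in place of 0.11 for alpha and 0.15 in place of 0.01 for beta. The log2 ratio of Nkx2.9LacZ/LacZ to Nkx2.9LacZ/+ was then −0.03 in place of −0.12 for alpha, and it changed sign for beta, at −0.12 in place of 0.02, and for gamma, at 0.01 in place of −0.05. In bulk tissue, fewer neurons using a cluster and less RNA per neuron cannot be told apart.

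**Figure D3:**
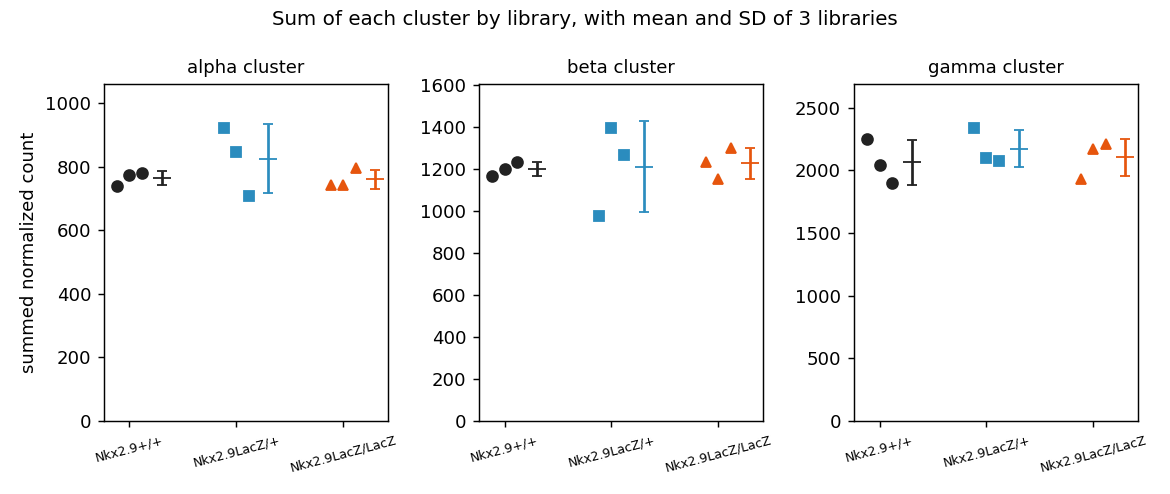
The summed normalized count of each cluster (vertical axis from 0) is plotted for every library by genotype, with the mean and SD of the 3 libraries beside the points. The genotypes overlap in all 3 clusters, and the Nkx2.9LacZ/+ libraries are the most spread in alpha and beta.

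The division among the clusters also overlapped between genotypes. Alpha genes held 19.1% of the members' normalized counts on average, beta genes 29.5% and gamma genes 51.4%. The beta share was 28.0 to 32.1% in all libraries other than library 4, where it was 23.0%. The C-type genes held 21.2 ± 3.60% (SD, n = 3) of the alpha counts in Nkx2.9+/+, 20.7 ± 2.35% in Nkx2.9LacZ/+ and 20.6 ± 2.16% in Nkx2.9LacZ/LacZ. Of the gamma counts they held 26.3 ± 1.20%, 27.4 ± 1.56% and 25.8 ± 1.30%, respectively, and the libraries of the genotypes overlapped for both shares. Pcdhgc4 by itself supplied 14.3, 15.9 and 15.5% of the gamma counts in Nkx2.9+/+, 18.9, 16.5 and 14.8% in Nkx2.9LacZ/+ and 13.7, 12.3 and 14.2% in Nkx2.9LacZ/LacZ. All 3 Nkx2.9LacZ/LacZ libraries were below the other 6, a difference that was seen in these values and was not tested.

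The comparison of the libraries labelled Nkx2.9LacZ/LacZ with those labelled Nkx2.9+/+ asked which genes depend on Nkx2.9, and for the clustered protocadherins limma called none. At an unadjusted limma p under 0.05, 0 of the 55 members tested were called, against 2.6% of all 16993 genes. After Benjamini-Hochberg adjustment 0 members and 0% of all genes passed. The count tests run on the reads, edgeR and DESeq2, called 1 (Pcdhgc3) and 0 members at an unadjusted p under 0.05, beside 2.48 and 1.86% of all genes, and none after adjustment, beside 0% of all genes in both. The median log2 fold change of the members was 0.03, beside 0.01 for all genes, and 34 members were positive and 21 negative. Of the 8 midbrain marker genes, 3 (En1, Pax7 and Pitx3) were lower in the libraries labelled Nkx2.9LacZ/LacZ at an unadjusted limma p under 0.05, and the list's summed normalized count was 1147 to 1310 against 1407 to 1500 in Nkx2.9+/+. Whether this difference lay in the tissue taken, in cell types or in RNA per cell was not tested. Its part in the values of the members was not tested either.

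The values of 4 members did not overlap between Nkx2.9LacZ/LacZ and Nkx2.9+/+ (7.27% of 55), beside 9.52% of all genes, which is no excess. Pcdhgc3, an isoform that acts on dendritic branching, had 171, 169 and 134 normalized counts in Nkx2.9+/+ and 172, 206 and 217 in Nkx2.9LacZ/LacZ. The lowest Nkx2.9LacZ/LacZ value was hardly above the highest Nkx2.9+/+ value, and the log2 fold change was 0.33 ± 0.16 (SE, limma unadjusted p = 0.051, adjusted p = 1). Its unadjusted limma p was 0.047 without a minimum level (adjusted p = 0.963). Its unadjusted edgeR p was 0.039 (adjusted p = 1). Pcdha5 and Pcdhb17 were likewise higher in every Nkx2.9LacZ/LacZ library, with log2 fold changes of 0.38 and 0.11, and Pcdhgb2 was lower, with −0.42.

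The extreme fold changes of this comparison belonged to members with few reads. Pcdhb12 had 0, 5.61 and 7.36 normalized counts in Nkx2.9+/+ and 9.03, 7.32 and 17.2 in Nkx2.9LacZ/LacZ, from 0 to 20 reads per library. Its values overlapped, and its log2 fold change on the log2(normalized count + 1) scale was 1.59 ± 0.78 (SE, limma unadjusted p = 0.059). Pcdha1 had the most negative log2 fold change at −0.82 ± 0.50 (limma unadjusted p = 0.12).

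Between the libraries labelled Nkx2.9LacZ/+ and Nkx2.9+/+, which by their labels differ in a single LacZ allele, 2 of 55 members (3.64%) had an unadjusted limma p under 0.05, near the 2.78% of all genes. With adjustment the counts were 0 members and 0% of all genes by limma, and 0 members by edgeR and DESeq2, beside 0 and 0.00589% of all genes. By the unadjusted p edgeR called 2 members and DESeq2 called 1, beside 2.19 and 1.55% of all genes. The median log2 fold change was 0.08 over the members and −0.01 over all genes. The values of 5 members did not overlap (9.09%), beside 6.91% of all genes. These were Pcdha5, Pcdhac1, Pcdhb3 and Pcdhb7, which were higher in Nkx2.9LacZ/+, and Pcdhb5, which was lower.

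**Figure D4:**
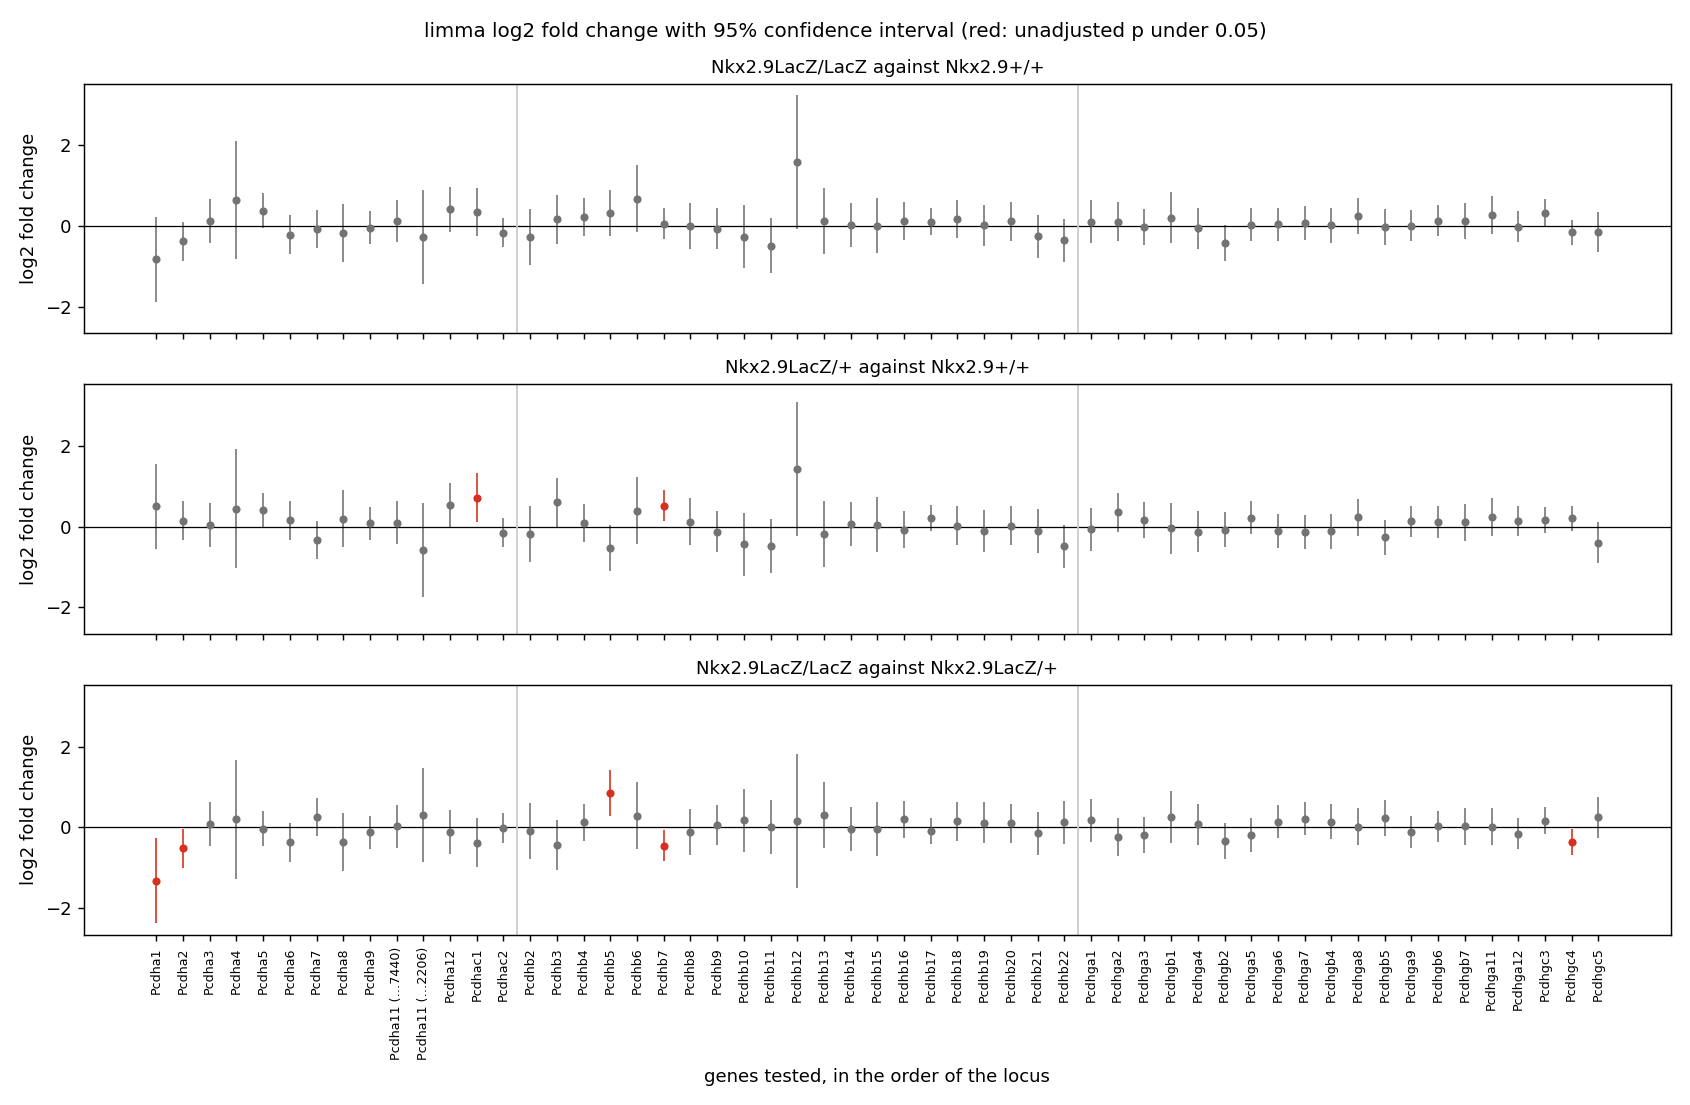
The limma log2 fold change of the 55 members tested (vertical axis) is drawn with its 95% confidence interval for the 3 genotype comparisons, in the order of the locus. Red marks an unadjusted p under 0.05, which occurs in 0, 2 and 5 members from top to bottom, and the widest intervals belong to Pcdha4 and Pcdhb12.

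Pcdhb7 (ENSMUSG00000045062), a beta isoform at bases 37341702 to 37345202, had 75.0, 73.7 and 63.3 normalized counts in Nkx2.9+/+, 99.4, 97.3 and 108 in Nkx2.9LacZ/+ and 74.5, 81.4 and 65.3 in Nkx2.9LacZ/LacZ. All 3 Nkx2.9LacZ/+ libraries were above the other 6 libraries. The log2 fold change for Nkx2.9LacZ/+ against Nkx2.9+/+ was 0.52 ± 0.18 (SE, limma unadjusted p = 0.011, adjusted p = 1). For Nkx2.9LacZ/LacZ against Nkx2.9LacZ/+ it was −0.46 ± 0.18 (SE, limma unadjusted p = 0.021, adjusted p = 0.999). Both comparisons use the same Nkx2.9LacZ/+ libraries. For Nkx2.9LacZ/LacZ against Nkx2.9+/+ the log2 fold change was 0.06. The unadjusted p of the first comparison remained under 0.05 under all 17 alternatives, while the second was lost without library 3 or library 6 (p up to 0.086).

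Pcdhac1 (ENSMUSG00000103255), the first C-type alpha gene, had 20.7, 39.3 and 38.3 normalized counts in Nkx2.9+/+, 50.5, 55.5 and 52.2 in Nkx2.9LacZ/+ and 30.9, 45.7 and 46.4 in Nkx2.9LacZ/LacZ. The Nkx2.9LacZ/+ libraries were again above all others. The log2 fold change for Nkx2.9LacZ/+ against Nkx2.9+/+ was 0.72 ± 0.28 (SE, limma unadjusted p = 0.021, adjusted p = 1). The call was lost without library 5, without library 7, which held the lowest value, and in DESeq2, with an unadjusted p of up to 0.11 and a log2 fold change of 0.43 to 0.88 over the alternatives.

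The libraries labelled Nkx2.9LacZ/LacZ against those labelled Nkx2.9LacZ/+ gave the most calls, with 5 of 55 members (9.09%) at an unadjusted limma p under 0.05 beside 2.64% of all genes. No test of this excess was made, and 0 members and 0% of all genes passed after adjustment. Both edgeR and DESeq2 called 5 members by the unadjusted p, beside 2.65 and 1.9% of all genes, and 0 by the adjusted p, beside 0% of all genes. Pcdhb5 was higher in Nkx2.9LacZ/LacZ, and Pcdha1, Pcdha2, Pcdhb7 and Pcdhgc4 were lower. The median log2 fold change of the members was 0.02, beside 0.02 over all genes. The values of 5 members did not overlap (9.09%), close to the 8.71% of all genes, namely Pcdha1, Pcdha2, Pcdhac1, Pcdhb5 and Pcdhb7.

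Pcdhb5 (ENSMUSG00000063687, bases 37320381 to 37323915) gave the smallest p of the members. It had 44.0, 40.0 and 39.0 normalized counts in Nkx2.9+/+, 19.6, 35.0 and 32.6 in Nkx2.9LacZ/+ and 52.7, 60.4 and 43.8 in Nkx2.9LacZ/LacZ. The Nkx2.9LacZ/+ libraries were below all others, and the Nkx2.9LacZ/LacZ and Nkx2.9+/+ libraries met at 43.8 and 44.0. The log2 fold change was 0.86 ± 0.27 (SE) for Nkx2.9LacZ/LacZ against Nkx2.9LacZ/+ (limma unadjusted p = 0.0057, adjusted p = 0.999), and the unadjusted p remained under 0.05 under all 17 alternatives with log2 fold changes from 0.60 to 1.01.

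Of the 12 alternate alpha genes, Pcdha1 and Pcdha2 were called in this comparison, and over all 12 the log2 fold change was positive in 5 and negative in 7. Pcdha1 (ENSMUSG00000103442) had 10.3, 6.32 and 13.3 normalized counts in Nkx2.9+/+, 16.3, 12.8 and 13.1 in Nkx2.9LacZ/+ and 3.01, 4.57 and 8.59 in Nkx2.9LacZ/LacZ, from 4 to 18 reads per library. Its log2 fold change was −1.32 ± 0.50 (SE, limma unadjusted p = 0.017, adjusted p = 0.999), and without library 1 the unadjusted p was 0.071. Pcdha2 (ENSMUSG00000104148) had 95.7, 57.5 and 67.7 in Nkx2.9+/+, 76.6, 77.7 and 84.9 in Nkx2.9LacZ/+ and 67.0, 56.7 and 43.8 in Nkx2.9LacZ/LacZ.

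The log2 fold change of Pcdha2 was −0.53 ± 0.23 (SE, limma unadjusted p = 0.035, adjusted p = 0.999). This call was lost without library 2, 3, 5 or 6, with an unadjusted p of up to 0.16. For both genes the Nkx2.9+/+ libraries spanned values of the other groups, and their next neighbours Pcdha3 and Pcdha4 had log2 fold changes of 0.08 and 0.20 in the same comparison.

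Among the C-type genes, Pcdhgc4 (ENSMUSG00000023036) had 323, 324 and 294 normalized counts in Nkx2.9+/+, 443, 348 and 308 in Nkx2.9LacZ/+ and 266, 266 and 314 in Nkx2.9LacZ/LacZ. The groups overlapped, and the 443 came from library 4. The log2 fold change for Nkx2.9LacZ/LacZ against Nkx2.9LacZ/+ was −0.36 ± 0.15 (SE, limma unadjusted p = 0.025, adjusted p = 0.999). Without library 4 it was −0.22 and the call was lost, as it was without library 1 or library 2, with an unadjusted p of up to 0.10.

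Pcdhac2 and Pcdhgc5 gave no call in any comparison with all libraries. Pcdhac2 (ENSMUSG00000102697) had 109, 152 and 130 normalized counts in Nkx2.9+/+, 122, 114 and 113 in Nkx2.9LacZ/+ and 104, 112 and 131 in Nkx2.9LacZ/LacZ. Pcdhgc5 (ENSMUSG00000102543) had 75.0, 70.2 and 66.2 in Nkx2.9+/+, 60.3, 66.6 and 37.5 in Nkx2.9LacZ/+ and 51.9, 67.7 and 72.1 in Nkx2.9LacZ/LacZ. For Nkx2.9LacZ/LacZ against Nkx2.9+/+, the 95% confidence interval of the log2 fold change was −0.52 to 0.20 for Pcdhac2, −0.47 to 0.15 for Pcdhgc4 and −0.65 to 0.35 for Pcdhgc5, which is the range of changes that these libraries allow.

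**Figure D5:**
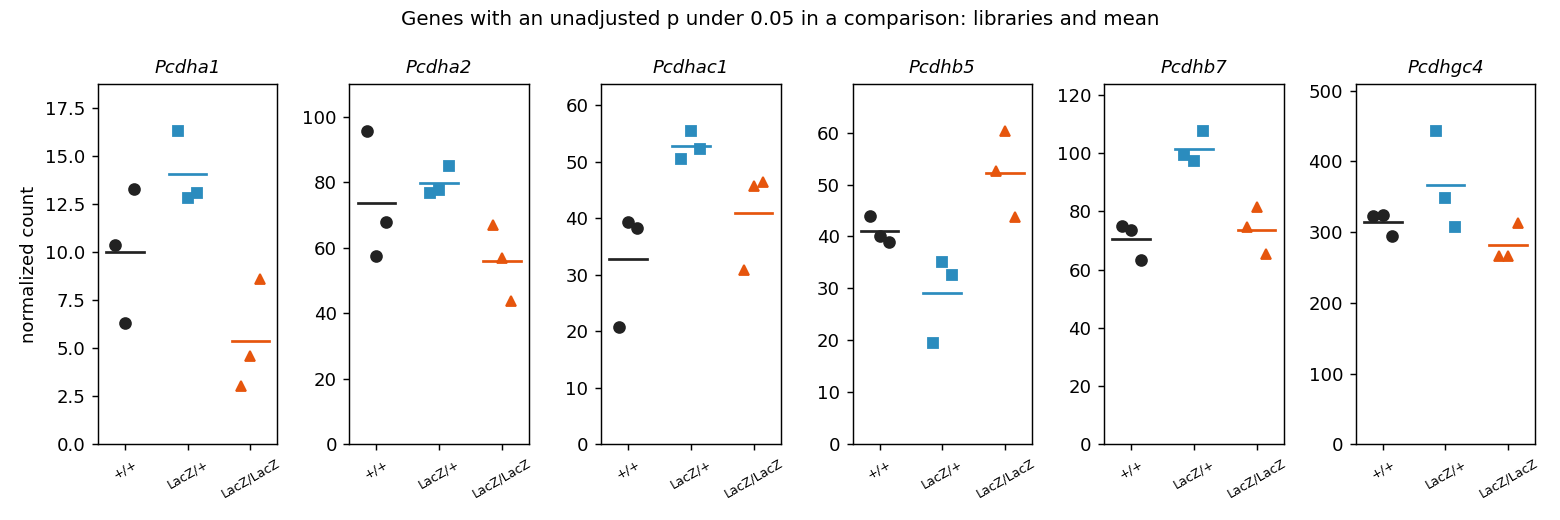
Normalized counts (vertical axes from 0, each gene with its own scale) of the 6 members with an unadjusted limma p under 0.05 in a comparison are shown for every library by genotype, with a line at the mean of 3 libraries. The Nkx2.9LacZ/+ libraries lie above all others in Pcdhac1 and Pcdhb7 and below all others in Pcdhb5.

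Lists of genes that act with the clustered protocadherins or lie beside them are too short to be set apart from all genes, of which 2.6 to 2.78% were called per comparison. None of 18 regulators of the locus, which include Ctcf, the cohesin genes Rad21 and Smc3 and the chromatin factors Smchd1 and Setdb1, had an unadjusted limma p under 0.05 in any comparison, and none of 12 nonclustered protocadherins did. Of 16 tested intracellular partners, Pdcd10, an adaptor that the cytoplasmic part of protocadherins binds, was lower in Nkx2.9LacZ/+ than in Nkx2.9+/+ (log2 fold change −0.41, limma unadjusted p = 0.042). Wasf2, an actin regulator of the WAVE complex, was higher in Nkx2.9LacZ/LacZ than in Nkx2.9LacZ/+ (0.36, limma unadjusted p = 0.037). Of 15 genes that flank the locus or lie between its clusters, only Hars2, which encodes the mitochondrial histidyl-tRNA synthetase, was called, with a log2 fold change of 0.53 for Nkx2.9LacZ/LacZ against Nkx2.9+/+ (limma unadjusted p = 0.012).

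Markers of differentiated neurons and of neural progenitors had no call among 10 genes each in any comparison. The summed normalized count of the neuronal list was 29466 to 32824 in Nkx2.9+/+, 27206 to 33736 in Nkx2.9LacZ/+ and 31374 to 31939 in Nkx2.9LacZ/LacZ. Of the other tissues, the meningeal sum was 237 to 343 in Nkx2.9+/+, 197 to 219 in Nkx2.9LacZ/+ and 182 to 282 in Nkx2.9LacZ/LacZ, and its groups did not overlap between Nkx2.9LacZ/+ and Nkx2.9+/+. In that comparison Col1a1 had a log2 fold change of −0.77 (limma unadjusted p = 0.0077). Foxc1, a further gene of the list, had −0.99 for Nkx2.9LacZ/LacZ against Nkx2.9+/+ (limma unadjusted p = 0.0068) and −0.78 against Nkx2.9LacZ/+ (limma unadjusted p = 0.026). The part of the meningeal genes in the members' values was not tested.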

How the data were processed

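RNA was sequenced from 9 libraries of E14.5 midbrain (ribosomal RNA depleted, paired-end, 100 bases). The authors aligned reads with HISAT2 to GRCm38 (mm10), counted them with featureCounts and normalized with DESeq2. Versions, annotation release and strand setting are not given in the sources used here. The deposited table of this signal (gene counts divided by size factors) carries the genotype but no replicate number of each library. Columns holding the authors' comparisons (fold changes and p-values) were not used. All values above 0 came out as whole reads (within 0.02), and 0 columns were left unused.

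Symbols and exons came from GENCODE vM21, in which 51633 of 51912 identifiers matched. Exon bases overlapped by another gene on either strand were left out of the length of a gene. The main test was limma 3.58.1 with a trend on log2(normalized count + 1), all 9 libraries in 1 fit, for 16993 genes with a mean of at least 5, which left out Pcdhb1 and Pcdhga10. P-values were two-sided, adjusted by Benjamini-Hochberg over all genes. They measure the spread between pooled libraries. edgeR 4.0.16 and DESeq2 1.42.0 were run on the recovered reads, and scripts were tested on simulated data. The choice of members, gene lists and tests was made with earlier results of these data known. Values are given for the C-type genes, the 3 highest and the lowest member of each subfamily, members with an unadjusted p under 0.05 and those with the extreme fold changes. Pcdhb19, Pcdha3 and members whose groups did not overlap were added after their values were seen. The choroid plexus, microglial, forebrain, blood and vessel lists gave 1, 1, 1, 0 and 0 genes at an unadjusted p under 0.05 over all comparisons (Kl, C1qb and Neurod6). No sequence is shown.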

Additional observations from a re-analysis of the deposited data

Results flagged for a closer look

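Beside the 57 protein-coding members, the locus held 28 other genes, of which 8 had 0 reads throughout. The non-coding genes and pseudogenes with more than 3 reads in every library (the most that a count of 0 allows) were set apart because they are neither members nor in a list described. Taf7, a protein-coding gene that also passed this minimum, is counted with the genes beside the clusters. Pcdhgb8, which the annotation lists as a polymorphic pseudogene, had a mean of 54.1 normalized counts. Gm10544 had a mean of 36.1 normalized counts, Gm36858 32.8 and Gm26672, which covers the first exon of Pcdhga10 on the opposite strand, 32.4. Gm19035 had a mean of 19.9 normalized counts, Gm29994 12.5 and BC037039, which overlaps the first exon of Pcdhgc3, 7.94. Of these 7, Gm26672 had a log2 fold change of 0.69 for Nkx2.9LacZ/LacZ against Nkx2.9LacZ/+ (limma unadjusted p = 0.045, adjusted p = 0.999) and was the only one with an unadjusted limma p under 0.05 in a comparison. The values of Gm10544 were higher in every Nkx2.9LacZ/LacZ library than in all others. Its log2 fold changes were 0.56 against Nkx2.9+/+ (limma unadjusted p = 0.056) and 0.51 against Nkx2.9LacZ/+ (limma unadjusted p = 0.075). BC037039 was lower in every Nkx2.9LacZ/LacZ library than in every Nkx2.9LacZ/+ library, with −1.10 (limma unadjusted p = 0.060). Of all genes tested, 9.52% did not overlap between Nkx2.9LacZ/LacZ and Nkx2.9+/+, and 8.71% between Nkx2.9LacZ/LacZ and Nkx2.9LacZ/+. Without strand in the counting, reads of an antisense gene and of its partner cannot be told apart where their exons overlap.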

How the results depend on the processing

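No paired analysis was possible because the columns of the table carry a genotype but no replicate number. The number of members with an unadjusted p under 0.05 for Nkx2.9LacZ/LacZ against Nkx2.9+/+ was 0, and it was 1 with no minimum, with a minimum of 20 and with edgeR, 2 with only the libraries of both genotypes, and 0 to 4 when 1 library was left out, the 4 without library 9. For Nkx2.9LacZ/+ against Nkx2.9+/+ it was 1 with DESeq2 and 3 with a pseudocount of 0.5 in place of 2, and 1 to 6 when 1 library was left out (4 without library 5 or 9, 5 without library 6, 1 without library 7, 6 without library 8). For Nkx2.9LacZ/LacZ against Nkx2.9LacZ/+ it was 3 to 5 when 1 library was left out, the 3 without library 1 or 3. Over the same leave-one-out settings, 1.67 to 4.91%, 2.22 to 5.51% and 1.73 to 4.36% of all genes had an unadjusted p under 0.05 in these comparisons, respectively. The first share was 3.78% without library 9. The second was 3.82, 3.53, 2.62, 3.83 and 3.53% without library 5, 6, 7, 8 and 9, respectively. The third was 2.21 and 1.74% without library 1 and 3, respectively. The first was 3.59% with no minimum, 2.11% with a minimum of 20 and 3.75% with only the libraries of both genotypes. The second was 2.71% with a pseudocount of 0.5. No setting gave a member an adjusted p under 0.05. By whole exon length the median levels per kb were 14.1 for the C-type and 11.3 for the alternate alpha genes, 18.1 for gamma A, 16.1 for gamma B and 32.3 for the gamma C-type genes. Per kb of own exon the C-type share of alpha was 16.8% in Nkx2.9+/+, 16.6% in Nkx2.9LacZ/+ and 16.2% in Nkx2.9LacZ/LacZ, and of gamma 24.2% in Nkx2.9+/+ and 25.3% in Nkx2.9LacZ/+. The log2 ratios of the cluster sums for Nkx2.9LacZ/LacZ against Nkx2.9LacZ/+ were −0.12 to 0.13 for beta and −0.08 to 0.01 for gamma when 1 library was left out. For Nkx2.9LacZ/LacZ against Nkx2.9+/+ they were −0.04 to 0.01 for alpha, −0.01 to 0.08 for beta and −0.03 to 0.10 for gamma, and for Nkx2.9LacZ/+ against Nkx2.9+/+ −0.10 to 0.15 for beta. The sign of each of these 6 depended on single libraries. For Nkx2.9LacZ/LacZ against Nkx2.9LacZ/+, the log2 fold change of Pcdhac2 changed sign with edgeR (0.0029) and without library 1, 2 or 4, with −0.11 to 0.057 when 1 library was left out, and that of Pcdhgc5 without library 6, with −0.0015 to 0.40. Pcdha1, Pcdha4 and Pcdhb12 had at most 20 reads in any library. The causes were not tested.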
